A study of Mus musculus with 6 samples.

Results

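Nuclear factor erythroid 2-related factor 2 (Nrf2, encoded by Nfe2l2), its inhibitor Keap1 and 8 enzymes of the glutathione, thioredoxin and catalase systems were followed in lung interstitial macrophages after β-glucan treatment. The 10 genes were Nfe2l2, Keap1, Gclc, Gclm, Gsr, Txnrd1, Srxn1, Prdx1, Prdx5 and Cat. They were chosen by symbol, and all 10 were found among the 21965 rows of the count table and passed the filter on low counts, as did 12305 genes in all. Interstitial macrophages are the macrophages of the lung tissue outside the air spaces. They were obtained by antibody staining of digested lungs from C57Bl/6 mice that were 6 to 8 weeks old and kept free of specific pathogens. Of the 6 RNA-seq libraries, 3 came from mice injected into the peritoneum with phosphate-buffered saline (PBS), the control group, and 3 from mice injected with 1 mg of WGP, the β-glucan preparation, over 6 days. Lungs were taken on day 7 in both groups. No allele or transgene is named for either group. Whether a library held cells of 1 mouse or of pooled mice is not stated in the labels. The p-values therefore reflect the spread among libraries alone, which need not be the spread among mice.

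In resting cells Keap1 binds Nrf2 and hands it to a ubiquitin ligase for degradation. Oxidants and electrophiles modify cysteines of Keap1, Nrf2 then accumulates, pairs with small Maf proteins and binds antioxidant response elements in DNA. Much of this control acts on the Nrf2 protein, so the Nfe2l2 transcript is not a measure of its activity. Its classical target genes serve glutathione synthesis, the thioredoxin system, NADPH supply, iron storage and heme breakdown. Macrophages make reactive oxygen species when they engulf particles and use these systems to limit damage to themselves.

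Because Nrf2 acts through short DNA elements, the 250 bases before the RefSeq start site (GRCm38.p6) were searched on both strands for the core of the element, TGACNNNGC, and for TGAGTCAGC, a site of Nrf2 paired with a small Maf protein. The second motif was added after the sequences had been seen. The 2 motifs differ at the fourth letter, so no stretch matches both on the same strand. Promoter sequences were at hand for 8 of the 10 genes, all except Gclc and Gsr. A match to either motif was found for 5 of the 8, against 11.8% of 27025 genes with a promoter in the same table. The first motif occurred in 11.5% of those genes and the second in 0.407%. Among the 8 genes the first motif matched in Nfe2l2, Gclm, Txnrd1 and Prdx1. The match of Srxn1 came only from the second motif. Because that motif was chosen with the sequences seen, the count of 5 cannot be weighed against the share of all genes. A match is a description of letters and does not show that a factor binds there. The matches are shown with 10 bases on either side, on the strand of the gene, with the match in capitals.
Nfe2l2 (chr2:75704885-75704913): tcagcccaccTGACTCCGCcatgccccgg
Gclm (chr3:122245413-122245441): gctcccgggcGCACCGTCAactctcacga
Txnrd1 (chr10:82859104-82859132): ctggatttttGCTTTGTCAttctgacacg
Prdx1 (chr4:116685456-116685484): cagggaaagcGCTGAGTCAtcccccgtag
Srxn1 (chr2:152105469-152105497): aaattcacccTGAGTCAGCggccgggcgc
The Txnrd1 match lay before the second of 3 start sites listed for that gene. The matches of Gclm, Txnrd1 and Prdx1 read on the opposite strand, as GCNNNGTCA. Counted from the start site, the match began at -240 for Nfe2l2, -134 for Gclm, -92 for Txnrd1, -133 for Prdx1 and -45 for Srxn1. Of the genes with a match, Srxn1 and Prdx1 fell after WGP, and Nfe2l2, Gclm and Txnrd1 did not pass the test described below. Of the others searched, Prdx5 and Keap1 rose and Cat fell. The whole 250 bases are printed for Srxn1 and Prdx5. Srxn1 had the lowest fold change of the 10 genes and the match nearest to its start site. Prdx5 had the highest fold change, and neither motif was found in it.
Srxn1 (chr2:152105274-152105523, plus strand): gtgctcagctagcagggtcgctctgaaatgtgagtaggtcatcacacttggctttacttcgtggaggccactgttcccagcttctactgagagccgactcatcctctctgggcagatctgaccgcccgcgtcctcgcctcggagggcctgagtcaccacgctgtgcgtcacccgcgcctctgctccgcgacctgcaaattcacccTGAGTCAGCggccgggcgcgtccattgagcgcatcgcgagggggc
Prdx5 (chr19:6910107-6910356, minus strand): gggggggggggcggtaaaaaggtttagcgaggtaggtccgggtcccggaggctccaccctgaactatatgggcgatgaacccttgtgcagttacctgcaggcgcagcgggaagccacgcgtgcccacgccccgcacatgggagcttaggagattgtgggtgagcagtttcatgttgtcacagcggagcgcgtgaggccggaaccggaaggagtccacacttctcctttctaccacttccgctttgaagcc

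Libraries held between 18254678 and 20346517 counts. Levels are TMM-normalised read counts (CPM, counts scaled to a common library size). Log2FC stands for the log2 fold change of WGP over PBS, given ± SE. Each gene was tested by quasi-likelihood in edgeR, p was adjusted by Benjamini and Hochberg's method over 12305 genes, and an adjusted p under 0.05 counts as passed. An exact test of 3 against 3 values cannot give a two-sided p below 0.1. PBS replicate 3 stood apart in its summed level of 4 Y-linked genes, 9.79 CPM against 112 and 179 CPM in PBS replicates 1 and 2 and 205 to 227 CPM in the WGP libraries. Every PBS library lay below every WGP library in this sum, so the Y-linked level is partly tied to treatment. A model with it cannot fully separate the 2. Leaving out PBS replicate 3, or adding the Y-linked level to the model, changed no call of the 10 genes. Of 15 interstitial macrophage markers all were counted in every library, and their summed level ran from 11190 to 12570 CPM after PBS and from 8386 to 9480 CPM after WGP. Of these markers 3 rose, 4 fell and 8 did not pass. Mertk, a receptor for dying cells, fell from 166 ± 36.9 to 20.6 ± 3.72 CPM (mean ± SD, n = 3), 8.06-fold, and the mannose receptor gene Mrc1, which is also on the alveolar macrophage list, fell 4.23-fold. The Fc receptor gene Fcgr1 rose 2.05-fold and the chemokine receptor gene Cx3cr1 rose 1.78-fold.

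Markers of other cells differed between the groups. Of 15 alveolar macrophage markers 14 fell, and their summed level ran from 6286 to 9474 CPM after PBS and from 1674 to 1969 CPM after WGP. Of 10 classical monocyte markers 9 rose and 1, Chil3, fell, with sums of 8245 to 9219 CPM and 11990 to 15230 CPM. Chil3 is also on the alveolar macrophage list and fell from 3478 ± 744 to 751 ± 64.4 CPM (mean ± SD, n = 3). That fall is included in the monocyte sums, so they understate the rise of the other 9 markers. Of 11 epithelial markers 9 fell and 1 rose (359 to 740 CPM and 97.4 to 149 CPM), and of 9 endothelial markers 7 fell (318 to 340 CPM and 97.9 to 119 CPM). Fewer markers passed among fibroblast (3 of 8 lower), T and NK cell (2 of 8 lower), B cell (1 of 6 lower) and neutrophil genes (1 of 12 higher). Even so, fibroblast sums were lower in every WGP library (99.6 to 141 CPM and 8.76 to 68.6 CPM). The same held for T and NK cell (109 to 147.5 CPM and 13.1 to 64.4 CPM) and B cell sums (124 to 142 CPM and 60.9 to 107 CPM). Neutrophil sums overlapped (1288 to 2894 CPM and 1658 to 3194 CPM). The 5 erythrocyte genes tested had log2FC values between -0.01 and 0.42. No marker was at 0 in all libraries, and those at 0 in some included Camp, Krt8, Krt18, Pdgfra, Cd3d and Cd3g. In bulk libraries fewer cells of a type and less RNA per cell cannot be told apart. The part of these shifts in the values of the antioxidant genes was not tested.

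The 10 antioxidant genes did not move as a block. After WGP, Prdx5, Gsr and Keap1 rose, Cat, Prdx1 and Srxn1 fell, and Nfe2l2, Gclc, Gclm and Txnrd1 did not pass the test. Thus 6 of the 10 genes were called, 3 in each direction, where 31.0% of all tested genes were called (15.2% higher and 15.7% lower). The groups did not overlap for the same 6 genes, where 48.1% of all tested genes had no overlap (23.2% with WGP above and 24.9% with WGP below). The median log2FC of the 10 genes was -0.09, beside -0.02 over all tested genes. The middle 50% of all tested genes lay between -0.45 and 0.23, so that Prdx5, Gsr and Keap1 lay above this range and Gclm and Srxn1 below it. Leaving out PBS replicate 1 alone or WGP replicate 3 alone, 3 of the 10 genes rose and 1 fell. Without PBS replicates 1 and 3, which left 1 PBS library whose spread is taken to be that of the WGP group, 3 genes rose and 1 fell.

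**Figure D1:**
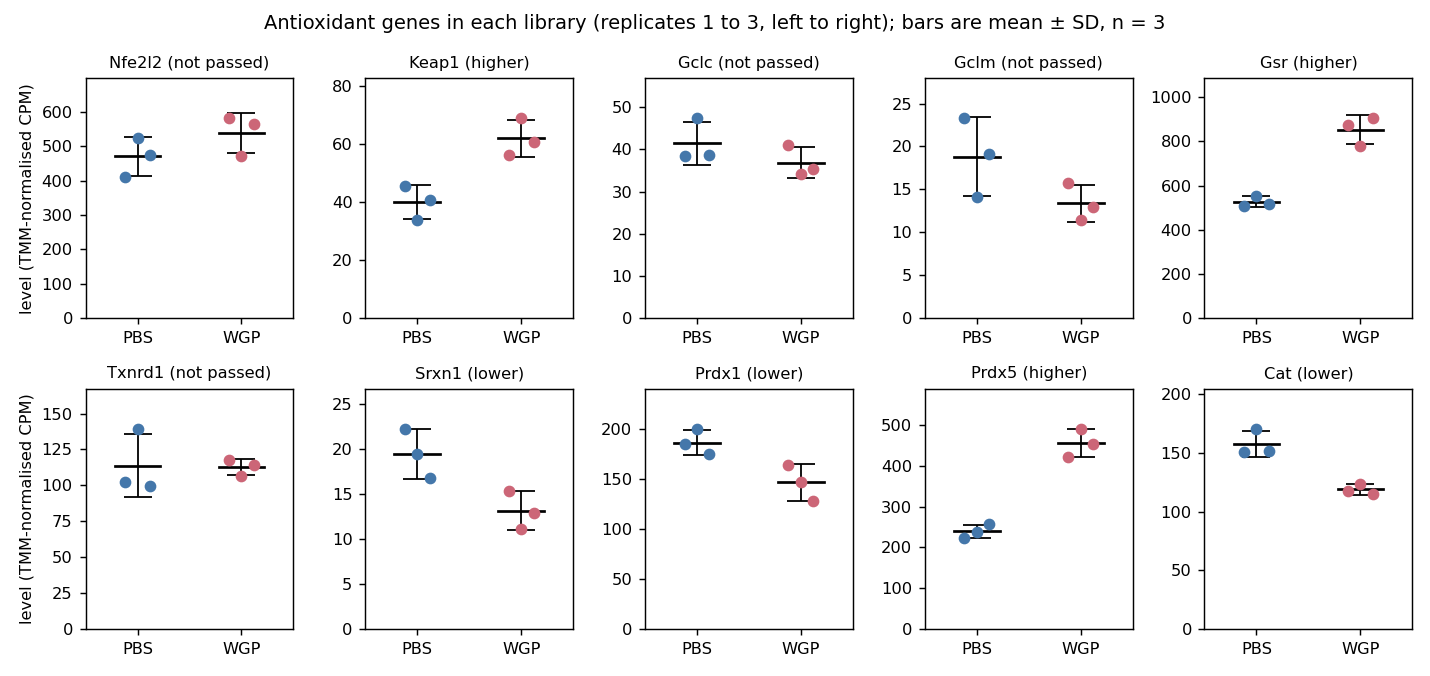
Level of each of the 10 genes in TMM-normalised CPM (vertical axes, each from 0) in the 3 PBS and 3 WGP libraries, with replicates 1 to 3 from left to right and black bars for the mean ± SD (n = 3). The WGP points lie wholly above the PBS points for Keap1, Gsr and Prdx5 and wholly below for Srxn1, Prdx1 and Cat.

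The 10 genes covered a wide range of levels. Set per kilobase of annotated exon, so that genes can be compared, Gsr was the most abundant after PBS, at 191 ± 8.98 CPM per kilobase (mean ± SD, n = 3), and Gclm the least, at 2.99 ± 0.73. The order after PBS was Gsr, Nfe2l2, Prdx5, Prdx1, Cat, Txnrd1, Gclc, Keap1, Srxn1 and Gclm. In this order the ranges of the 3 libraries overlapped between Nfe2l2 and Prdx5, between Prdx1 and Cat and between Keap1 and Srxn1, and between no other neighbours. After WGP the order was Gsr, Prdx5, Nfe2l2, Prdx1, Cat, Txnrd1, Keap1, Gclc, Srxn1 and Gclm, and of the neighbours only Prdx1 and Cat overlapped. Gsr, Prdx5 and Nfe2l2 stood at the 98.7th, 97.8th and 97.3rd percentile of all tested genes on this scale over both groups, and Gclm at the 34.6th.

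Nfe2l2 (ENSMUSG00000015839, chromosome 2, 75675513 to 75704641 of GRCm38, minus strand) encodes Nrf2 itself. Its level was 412, 525 and 475 CPM in PBS replicates 1, 2 and 3 and 581, 472 and 565 CPM in WGP replicates 1, 2 and 3. WGP replicates 1 and 3 lay above all PBS libraries, while replicate 2 lay among them, so the groups overlapped. The log2FC was 0.20 ± 0.11 and did not pass (adjusted p = 0.187), with an interval of 2 SE on each side from -0.01 to 0.41. Keap1 (ENSMUSG00000003308, chromosome 9, 21229730 to 21239361, minus strand), the sensor that holds Nrf2 for degradation, was at 45.5, 33.9 and 41.0 CPM after PBS and 56.2, 69.0 and 61.0 CPM after WGP. Every WGP library was above every PBS library. Keap1 rose by a log2FC of 0.63 ± 0.12, or 1.55-fold (adjusted p = 0.0032). Its exons overlap those of Gm16754 on the other strand over 10.9% of their length, and without a stated strand setting reads there cannot be told apart. Within the PBS group the library with the lowest Keap1, replicate 2, had the highest Nfe2l2. Within the WGP group the library with the highest Keap1, also numbered 2, had the lowest Nfe2l2. Over all 6 libraries the Pearson r of the pair on log2 CPM was 0.19. Taken as deviations from the group means, Keap1 had an r of -0.954 with Nfe2l2, -0.926 with Gclc and -0.867 with Txnrd1. The opposite course was thus not particular to Nfe2l2. These values rest on 6 libraries and are some of the many pairs among the antioxidant genes, so they are a description. The pair of Srxn1 and Prdx5 had an r of -0.998 on the same scale.

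Of the 11 regulators of the pathway, Nfe2l2 and Keap1 included, 2 rose, 3 fell and 6 did not pass, so 45.5% were called, beside 31.0% of all genes. Bach1, which competes with Nrf2 for its DNA sites and represses target genes, rose with Keap1, from 287 ± 16.4 to 371 ± 14.8 CPM (mean ± SD, n = 3), a log2FC of 0.37 ± 0.07 (adjusted p = 0.0030). Sqstm1, the autophagy adaptor p62 that can take Keap1 away from Nrf2, fell by 0.59 ± 0.07 on the log2 scale (adjusted p = 0.00023), from 374 ± 24.7 to 248 ± 8.05 CPM. Nfe2l1, the related factor Nrf1, fell by 0.69 ± 0.09. Maff, a small Maf protein, had the largest change in this list, from 35.8 ± 7.25 to 11.8 ± 3.27 CPM (log2FC -1.60 ± 0.22, adjusted p = 0.00080). The other small Maf genes Mafg (0.12) and Mafk (0.02) did not pass, nor did Cul3 (0.18) and Rbx1 (0.32), parts of the ubiquitin ligase to which Keap1 delivers Nrf2. Without PBS replicates 1 and 3 the call of Bach1 was lost (adjusted p = 0.093) and 1 regulator rose.

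Among all protein-coding genes tested outside the 10, those whose log2 CPM followed Nfe2l2 most closely over the 6 libraries were Mindy1 (Pearson r = 0.992), Git2 (0.982) and Cpsf1 (0.980). None of these passed the test between the groups, at log2FC values of 0.25, 0.06 and 0.12 (adjusted p = 0.141, 0.570 and 0.295). Those nearest to Keap1 were Kif3b (r = 0.993), Zfp800 (0.990) and Nptn (0.987), of which Kif3b and Zfp800 rose (0.24 and 0.35, adjusted p = 0.039 and 0.019) and Nptn, at 0.11, did not pass. With 6 points that share 2 groups and 12281 genes compared, these values of r are a description of likeness.

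Glutathione is made in a pair of steps, the first by the glutamate-cysteine ligase of Gclc and Gclm and the second by glutathione synthetase. Gclc (ENSMUSG00000032350, chromosome 9, 77754535 to 77794485, plus strand), the catalytic subunit, was at 38.3, 47.3 and 38.6 CPM after PBS and 41.0, 34.1 and 35.4 CPM after WGP. The groups overlapped, since WGP replicate 1 lay above PBS replicates 1 and 3. The log2FC was -0.17 ± 0.12 (adjusted p = 0.314, interval of 2 SE on each side -0.41 to 0.07). Gclm (ENSMUSG00000028124, chromosome 3, 122245557 to 122270732, plus strand), the modifier subunit, was at 23.3, 14.1 and 19.1 CPM after PBS and 15.7, 11.5 and 12.9 CPM after WGP. PBS replicate 2 lay among the WGP libraries. Its log2FC of -0.50 ± 0.20 did not pass (adjusted p = 0.087, interval -0.90 to -0.09), but did without PBS replicate 2 (-0.67, adjusted p = 0.029). At 217 to 479 counts per library Gclm had one of the thinnest count bases of the 10 genes, with Srxn1. The exons of Gclm overlap those of Gm17494 on the other strand and Gm6061 on the same strand, over 4.71% of their length.

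Gsr (ENSMUSG00000031584, chromosome 8, 33652523 to 33698163, plus strand) encodes glutathione reductase, which returns oxidised glutathione to its reduced form with NADPH. It was at 508, 555 and 516 CPM after PBS and at 875, 778 and 904 CPM after WGP. The lowest WGP library was far above the highest PBS library. Gsr rose by a log2FC of 0.70 ± 0.08, or 1.62-fold (adjusted p = 0.00013), while neither ligase subunit passed the test. Leaving out any 1 library kept its log2FC between 0.65 and 0.76 and its call.

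Of 14 genes of glutathione synthesis and transport, 2 rose (Gsr and Gss), 2 fell (Oplah and Slc3a2) and 10 did not pass, so 28.6% were called, beside 31.0% of all genes. Gss, the glutathione synthetase of the second step, rose from 17.3 ± 0.58 to 34.9 ± 9.41 CPM (log2FC 1.02 ± 0.18, adjusted p = 0.0017). Its spread after WGP came from replicate 3, at 45.6 CPM against 31.2 and 28.0 CPM. Oplah, the 5-oxoprolinase that recovers glutamate from glutathione breakdown, fell from 8.94 ± 0.90 to 2.20 ± 0.33 CPM (-2.02 ± 0.26, adjusted p = 0.00032). Slc3a2, the heavy chain of the cystine importer and of other amino acid transporters, fell by 0.40 ± 0.09 on the log2 scale (adjusted p = 0.0068). The light chain of the cystine importer, Slc7a11, was at 21.4 ± 6.91 and 15.4 ± 6.08 CPM and did not pass (adjusted p = 0.385). Without PBS replicates 1 and 3 the call of Gss was lost (adjusted p = 0.055) and 1 gene of the list rose.

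Of 22 tested enzymes that use glutathione, 6 rose, 3 fell and 13 did not pass (median log2FC -0.22), so 40.9% were called, where 15.2% of all genes rose and 15.7% fell. The microsomal transferase gene Mgst1 rose from 140 ± 2.25 to 206 ± 21.2 CPM (log2FC 0.56 ± 0.08, adjusted p = 0.00065), whereas its relative Mgst3 fell from 17.2 ± 2.44 to 6.95 ± 2.87 CPM (-1.31 ± 0.27, adjusted p = 0.0044). Gstp1, a cytosolic glutathione transferase, rose by 0.58 ± 0.11 and Esd, which releases glutathione from its formaldehyde adduct, by 0.69 ± 0.14, while the transferase gene Gstm1 fell by 0.38 ± 0.09 on the log2 scale. Reads of near-identical Gstp and Gstm family members can be shared or lost in counting. Of the glutathione peroxidases, Gpx4, which reduces lipid peroxides in membranes, rose from 75.8 ± 2.91 to 96.4 ± 5.57 CPM (log2FC 0.35 ± 0.08, adjusted p = 0.0066). The secreted Gpx3 fell from 27.0 ± 3.09 to 15.5 ± 4.34 CPM (-0.80 ± 0.19, adjusted p = 0.0098). Gpx1, the main cytosolic enzyme of this family, was at 961, 996 and 1102 CPM after PBS and 1124, 1218 and 1127 CPM after WGP. Its groups did not overlap, yet it did not pass (0.18 ± 0.08, adjusted p = 0.091), except without PBS replicate 3 (adjusted p = 0.031) or with the Y-linked covariate (0.038). The number of these enzymes that fell was 5 with upper quartile scaling and 6 with library sizes alone or DESeq2. Without PBS replicates 1 and 3, 2 rose, and Gpx4, Esd, Mgst3, Gstm1 and Gpx3 were no longer called (adjusted p between 0.058 and 0.171).

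The thioredoxin system passes electrons from NADPH through thioredoxin reductase and thioredoxin to the peroxiredoxins, which break down hydrogen peroxide. Txnrd1 (ENSMUSG00000020250, chromosome 10, 82833951 to 82897712, plus strand), the cytosolic reductase, was at 102, 139 and 99.5 CPM after PBS and 117, 106 and 114 CPM after WGP. PBS replicate 2 was the highest of all 6 libraries and the groups overlapped. Its log2FC was -0.01 ± 0.12 (adjusted p = 0.944, interval of 2 SE on each side -0.26 to 0.23), and it had no stable sign across the alternative analyses. Its substrate Txn1, thioredoxin, was at 117 ± 7.00 and 101 ± 11.4 CPM and did not pass (-0.21 ± 0.09, adjusted p = 0.120), except with library sizes alone as the scaling (-0.31, adjusted p = 0.031).

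The 2 peroxiredoxins chosen moved in opposite directions. Prdx5 (ENSMUSG00000024953, chromosome 19, 6906697 to 6910106, minus strand), found in mitochondria, peroxisomes and cytosol, was at 223, 237 and 257 CPM after PBS and 423, 490 and 454 CPM after WGP. All WGP libraries were well above all PBS libraries. Prdx5 rose by a log2FC of 0.93 ± 0.08, or 1.91-fold (adjusted p = 3.8e-05), the highest of the 10 genes. Its exons overlap those of Trmt112 on the other strand over 19.1% of their length. Trmt112 was at 27.7 ± 1.90 and 32.0 ± 3.76 CPM and did not pass (0.21 ± 0.12, adjusted p = 0.224).

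Prdx1 (ENSMUSG00000028691, chromosome 4, 116685544 to 116700822, plus strand), the main cytosolic peroxiredoxin, was at 185, 200 and 174 CPM after PBS and 164, 147 and 128 CPM after WGP. The groups did not overlap, although WGP replicate 1 and PBS replicate 3 came close. Prdx1 fell by a log2FC of 0.35 ± 0.10 (adjusted p = 0.019). It no longer passed once PBS replicate 1 (adjusted p = 0.063), PBS replicate 2 (0.073) or WGP replicate 3 (0.078) was left out, with log2FC values between -0.44 and -0.25 over all libraries left out in turn. Nor did it pass without PBS replicates 1 and 3 (0.074). Per kilobase, Prdx5 went from 112 ± 7.97 to 213 ± 15.7 CPM and Prdx1 from 61.2 ± 4.18 to 48.1 ± 6.02 CPM.

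Srxn1 (ENSMUSG00000032802, chromosome 2, 152105516 to 152111376, plus strand) encodes sulfiredoxin, which repairs peroxiredoxins that have been overoxidised. It was at 22.2, 19.4 and 16.7 CPM after PBS and 15.4, 11.1 and 12.9 CPM after WGP, from 210 to 457 counts per library. The groups did not overlap, with PBS replicate 3 and WGP replicate 1 the closest. Srxn1 fell by a log2FC of 0.57 ± 0.17 (adjusted p = 0.029). Of the 6 calls this one was lost in the most alternatives, since the adjusted p was 0.132 on leaving out PBS replicate 1, 0.067 for PBS replicate 2, 0.085 for WGP replicate 2, 0.083 for WGP replicate 3 and 0.189 for PBS replicates 1 and 3 together. The log2FC stayed between -0.69 and -0.46 with any 1 library left out.

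Of 21 thioredoxin, peroxiredoxin and methionine sulfoxide reductase genes, 3 rose, 6 fell and 12 did not pass, so 42.9% were called, where 15.2% of all genes rose and 15.7% fell. Prdx2, another cytosolic peroxiredoxin, was among those that rose, going from 74.1 ± 2.76 to 100.2 ± 5.86 CPM (log2FC 0.43 ± 0.08, adjusted p = 0.0019), while Prdx3 (-0.01), Prdx4 (-0.22) and Prdx6 (0.25) did not pass. Msrb1, a reductase of oxidised methionine, rose from 470.0 ± 31.4 to 690.4 ± 30.8 CPM (log2FC 0.55 ± 0.07, adjusted p = 0.00037), and its relative Msrb3 fell from 5.05 ± 0.59 to 1.33 ± 0.63 CPM (-1.91 ± 0.43, adjusted p = 0.0068). Txnip, which binds and inhibits thioredoxin, fell from 915 ± 182 to 445 ± 43.3 CPM (-1.04 ± 0.15, adjusted p = 0.0019). Txnrd3, a reductase best known from testis, fell from 4.48 ± 0.77 to 1.75 ± 0.64 CPM (-1.36 ± 0.40, adjusted p = 0.025), a call lost on leaving out PBS replicate 1 (0.105) or 3 (0.072) or WGP replicate 3 (0.068) and with the Y-linked covariate (0.095). The number of genes that fell was 2 without PBS replicate 1 or WGP replicate 3, 3 without PBS replicate 2 and 1 without PBS replicates 1 and 3, where Msrb3 was no longer called (0.095), and the number that rose was 5 without WGP replicate 2.

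Catalase breaks hydrogen peroxide down to water and oxygen, mainly in peroxisomes. Cat (ENSMUSG00000027187, chromosome 2, 103453849 to 103485160, minus strand) was at 151, 170 and 151 CPM after PBS and 118, 124 and 115 CPM after WGP. The highest WGP library was below the lowest PBS library. Cat fell by a log2FC of 0.40 ± 0.08 (adjusted p = 0.0025), and the call was kept with any 1 library left out (log2FC between -0.44 and -0.35, adjusted p of at most 0.016). In the PBS group replicate 2 had the highest level of Cat, Prdx1, Nfe2l2, Gclc, Gsr and Txnrd1 and Keap1 and Gclm were lowest in it. That library also had the highest PBS sum of alveolar macrophage markers (9474 CPM against 8021 and 6286 CPM in replicates 1 and 3). The same held for neutrophil (2894 against 2122 and 1288 CPM) and epithelial markers (740 against 447 and 359 CPM). Its classical monocyte sum was also the highest, but includes Chil3, which is on the alveolar macrophage list too. Chil3 was at 4259 CPM there against 3396 and 2778 CPM in replicates 1 and 3. Endothelial (340 against 318 and 323 CPM) and fibroblast sums (141 against 99.6 and 137 CPM) were highest in it as well. Its sums of interstitial macrophage and B cell markers were the lowest. The part of these cells in the values was not tested.

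Superoxide dismutases make the hydrogen peroxide that catalase removes. With catalase and the copper chaperone Ccs they form a list of 5 genes, of which 1 rose, 2 fell and 2 did not pass (60.0% called, beside 31.0% of all genes). Cytosolic Sod1 rose from 150.3 ± 10.5 to 184 ± 9.70 CPM (log2FC 0.29 ± 0.08, adjusted p = 0.015), but did not pass on leaving out PBS replicate 1 (0.085) or 2 (0.055) or WGP replicate 1 (0.054), nor with library sizes alone (0.087) or without PBS replicates 1 and 3 (0.081). Mitochondrial Sod2 was at 72.3 ± 5.54 and 77.0 ± 9.08 CPM and did not pass (0.09 ± 0.10, adjusted p = 0.541). The extracellular enzyme Sod3 fell from 8.34 ± 1.71 to 2.54 ± 1.39 CPM (-1.71 ± 0.42, adjusted p = 0.012), a call lost without PBS replicates 1 and 3 (0.074).

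**Figure D2:**
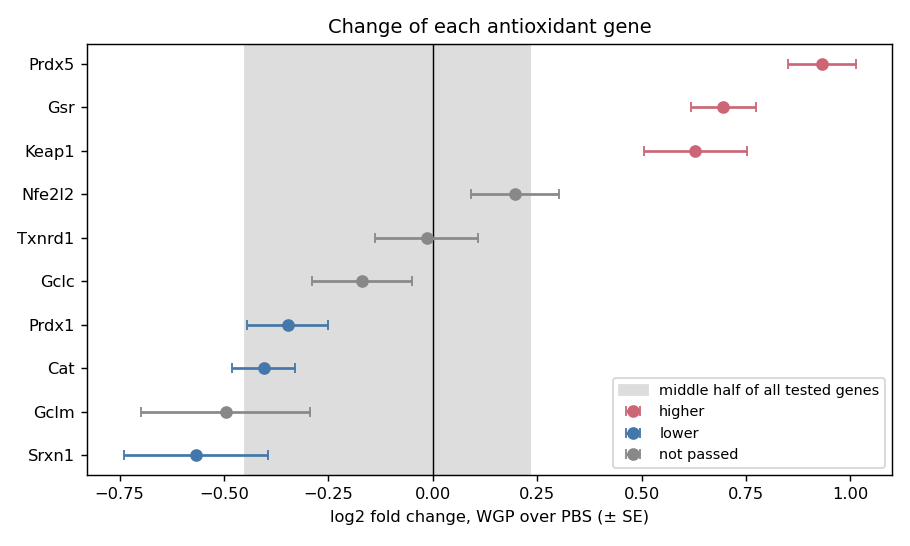
Log2 fold change of WGP over PBS (horizontal axis, ± SE) for each of the 10 genes, coloured by whether the gene was higher, lower or did not pass at an adjusted p of 0.05, with the middle 50% of all tested genes shaded. Prdx5 stands at 0.93, Gsr at 0.70 and Keap1 at 0.63, right of the shaded range, and Srxn1 has the lowest value, -0.57.

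Glutathione reductase and thioredoxin reductase both draw on NADPH. Genes listed under its supply were mostly higher after WGP where they passed the test. The list is broad and also holds genes such as Tkt, Taldo1 and Nadk, whose enzymes do not themselves make NADPH. Of the 14 genes listed 8 rose, 1 fell and 5 (Pgls, Idh2, Me1, Mthfd2 and Nnt) did not pass. Over all tested genes 15.2% rose and 15.7% fell. Their median log2FC was 0.33, beside -0.02 over all tested genes. Tkt, the transketolase of the pentose phosphate pathway, rose from 390.4 ± 4.84 to 639.6 ± 16.7 CPM (log2FC 0.71 ± 0.06, adjusted p = 4.3e-05). G6pdx, the enzyme that opens that pathway and makes NADPH, rose from 254 ± 20.6 to 401 ± 8.89 CPM (log2FC 0.66 ± 0.08, adjusted p = 0.00014). Idh1, the cytosolic isocitrate dehydrogenase, rose from 129.8 ± 3.03 to 222 ± 21.8 CPM (0.78 ± 0.08, adjusted p = 9.6e-05). The groups did not overlap for any of these 3 genes. The gene that fell was the folate enzyme gene Mthfd1, from 20.3 ± 1.58 to 13.5 ± 2.79 CPM (-0.60 ± 0.17, adjusted p = 0.024). It did not pass on leaving out any 1 of the PBS libraries (0.057, 0.058 and 0.081 for replicates 1, 2 and 3) or WGP replicate 3 (0.076), nor with the Y-linked covariate (0.111). Without WGP replicate 2, 2 of these genes fell. Without PBS replicates 1 and 3, 5 rose, and Mthfd1 did not pass (0.219).

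Of 31 tested Nrf2 target genes, which take in 7 of the 10 genes and overlap the lists above, 8 rose, 10 fell and 13 did not pass (median -0.18), so that 58.1% were called, beside 31.0% of all genes. The counts were 6 higher and 6 lower without PBS replicates 1 and 3. By p-value, Tkt, Abcc4 and Idh1 led those that rose. Abcc4, an exporter of organic anions and glutathione conjugates, rose from 30.3 ± 1.12 to 62.8 ± 5.61 CPM (log2FC 1.05 ± 0.10, adjusted p = 5.5e-05). Ephx1, Sqstm1 and Ftl1 led those that fell. Ephx1, the microsomal epoxide hydrolase, fell from 40.2 ± 4.12 to 12.8 ± 0.40 CPM (-1.65 ± 0.12, adjusted p = 1.8e-05). Ftl1, the light chain of the iron store ferritin, fell by 0.44 ± 0.07 on the log2 scale, and Hmox1, the heme oxygenase, fell from 359 ± 88.2 to 188 ± 5.82 CPM (-0.93 ± 0.16, adjusted p = 0.0048). Ferritin genes have many processed pseudogenes, and their reads can be shared or lost in counting. Nqo1, a quinone reductase widely used as a readout of Nrf2, was at only 1.01 ± 0.46 and 0.92 ± 0.33 CPM and did not pass (-0.13 ± 0.67, adjusted p = 0.906).

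**Figure D3:**
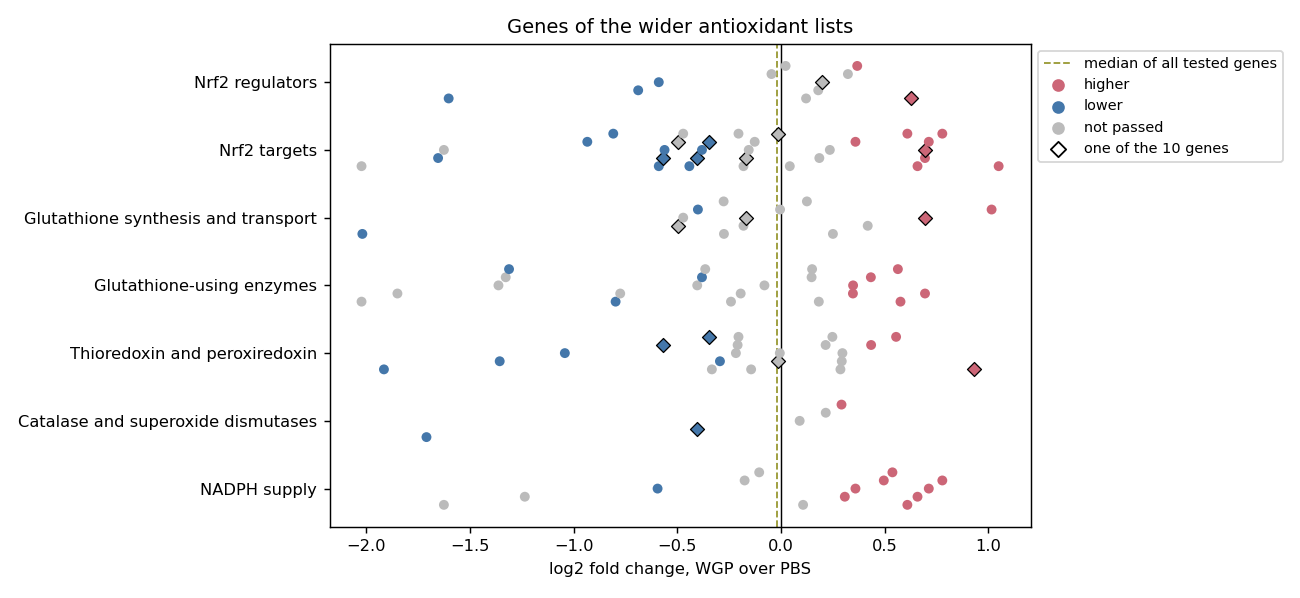
Log2 fold change of WGP over PBS (horizontal axis) for every tested gene of the 7 wider lists (rows, with points spread vertically for legibility), coloured by call, with the 10 genes as diamonds and the median of all tested genes as a dashed line. The NADPH supply row has 8 higher genes and 1 lower gene, while the Nrf2 target row has 8 higher and 10 lower.

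Outside the 10 genes the lists held 88 tested genes, of which 20 rose, 19 fell and 49 did not pass, with a median of -0.06. Thus 44.3% of these list genes were called in the same fit, beside 31.0% of all genes. Without PBS replicates 1 and 3, 10 rose and 10 fell.

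**Figure D4:**
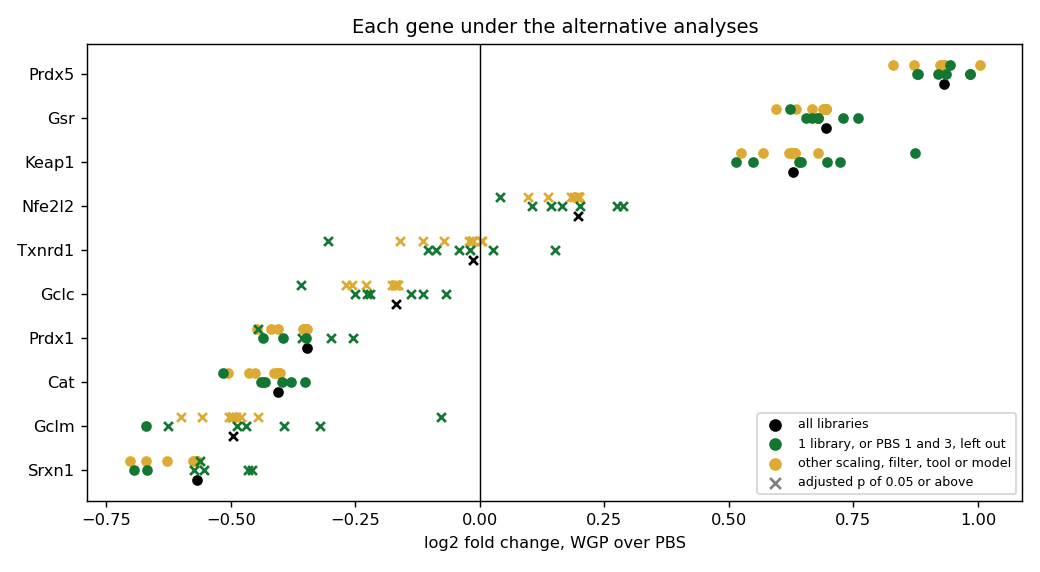
Log2 fold change of WGP over PBS (horizontal axis) for each of the 10 genes with all libraries, with libraries left out and with other scalings, filters, tools or models (colours), where crosses have an adjusted p of 0.05 or above. All values of Prdx5, Gsr, Keap1 and Cat are dots, on 1 side of 0, while Prdx1 and Srxn1 turn to crosses when some libraries are left out.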

How the data were processed

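PolyA-selected RNA of 6 libraries was sequenced. Read counts per gene were deposited by the authors; per the submitters' processing notes, HTSeq 0.10.0, FastQC 0.10.1 and the builds mm10 and GRCm38 were used. Aligner, annotation and strand setting: not given in the sources used here. GENCODE M21 (GRCm38) matched 21939 of 21965 identifiers (99.9%) and gave symbols, coordinates and exon lengths. Promoter sequences are from RefSeq (GRCm38.p6).

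The groups were tested with edgeR 4.0.16 (R 4.3.3; TMM, filterByExpr, robust estimateDisp and glmQLFit, quasi-likelihood F test, two-sided) over 12305 genes. The SE is the size of the log2 fold change divided by the square root of F. For correlations, CPM were put on the log2 scale with 2 as prior count. In simulated data for this comparison (12305 genes), 67, 67 and 66 genes were changed 1.5-fold, 2-fold and 4-fold. The test recovered 44.8%, 61.2% and 84.8% of them and called 10 unchanged genes. Far fewer genes were changed there than the 31.0% called in the real data, so these shares need not hold for it. Replicates differed by a chi-square of 13.5 to 24.8 per degree of freedom, so none repeated another.

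The 10 genes, 7 wider lists and 10 marker lists were chosen with earlier results of these data known. Named besides the 10 genes were up to 3 list genes per direction by smallest p, 3 nearest genes for Nfe2l2 and Keap1, and fixed names (Nqo1, Hmox1, Slc7a11, Gpx1, Gpx4, Sod1, Sod2, Txn1, Txnip). Other genes in the text were named after their values were seen. Alternatives were other scalings and filters, DESeq2 1.42.0, limma-voom 3.58.1, no robust estimation, the replicate number as a block, a Y-linked covariate, each library left out and PBS replicates 1 and 3 left out.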

Additional observations from a re-analysis of the deposited data

How the results depend on the processing

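Under all 17 alternatives Prdx5, Gsr and Keap1 stayed higher and Cat lower, all past the threshold, and Nfe2l2, Gclc and Txnrd1 did not pass. With any 1 library left out the number of the 10 genes that rose was 3 and the number that fell ran from 1 to 3, and without PBS replicates 1 and 3 it was 1. Over all genes 1202 to 1753 rose and 1289 to 1964 fell with 1 library left out, and 993 rose and 827 fell without PBS replicates 1 and 3, where fewer samples were tested. With library sizes alone 1236 rose and 2460 fell, and the median of all genes moved from -0.02 to -0.12. Txnrd1 changed sign with limma-voom (0.0036), with the replicate block (0.0017) and within its range of -0.10 to 0.15 with 1 library left out. Sod2 turned to -0.01 (-0.012) with library sizes alone and -0.03 (-0.031) without PBS replicates 1 and 3, and Nqo1 ran from -0.46 to 0.13 with 1 library left out. The cause was not tested.

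Same-numbered libraries did not deviate together (correlations of -0.081 to -0.046, and 0 of 6 libraries correlated best with their own number). With the replicate number as a block 3185 in place of 3809 genes were called, 3 of the 10 genes rose and 3 fell, and Txnrd3 (adjusted p = 0.052) and Mthfd1 (0.052) were no longer called. Over the 34 other named genes, 543 of 578 values kept direction and side of the threshold. Low counts limit Gclm (217 to 479 per library) and Srxn1 (210 to 457).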

Other observations

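Several genes of the Nrf2 target and NADPH supply lists were barely detected. Besides Nqo1, the malic enzyme gene Me1 was at 0.90 and 0.28 CPM (mean after PBS and WGP), the glutathione transferase gene Gsta3 at 1.34 and 0.32 CPM, and the mitochondrial transhydrogenase gene Nnt at 1.37 and 0.58 CPM. None of the 3 passed the test in edgeR (adjusted p = 0.338, 0.066 and 0.242). The glutathione peroxidase gene Gpx2 was at 0.43 CPM after PBS and had no count after WGP, and it did not pass the filter on low counts. The enzyme of the same NADPH group that rose at the highest level was Nadk, the cytosolic NAD kinase that makes NADP, from 682 to 990.2 CPM (0.54 on the log2 scale, adjusted p = 0.00066).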
